A study of Mus musculus with 30 samples.

Results

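The fatty acid uptake and binding proteins described here are the products of 8 of the 18193 genes named on the array, Cd36, Slc27a1, Slc27a2, Slc27a4, Fabp1, Fabp2, Fabp4, and Fabp5. They were chosen by name, and every probe set annotated to them was taken, which gave 16 of the 45037 probe sets on the array once its control probe sets were set aside. Expression was measured in left lobe liver RNA of male mice, 6 to 9 months old, that received PFOS (perfluorooctane sulfonate, potassium salt) by gavage in 0.5% Tween 20 for 7 days. Wildtype (WT) mice were of strain 129S1/SvlmJ and PPARα-null (Null) mice were 129S4/SvJae-Pparatm1Gonz/J, so the genotypes came from different substrains, and genotype and substrain cannot be told apart. Each genotype was given 0, 3, or 10 mg/kg PFOS, with 5 mice in each of the 6 groups, 1 array per mouse, and 30 arrays in all. The control mice of both genotypes received the vehicle alone, and the Null allele is a deletion carried in every cell, so that no comparison here is specific to hepatocytes.

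Long-chain fatty acids enter hepatocytes with the help of membrane proteins and are carried through the cytosol by small binding proteins. CD36 (fatty acid translocase) binds long-chain fatty acids at the cell surface, the fatty acid transport proteins of the SLC27 family couple uptake to activation with coenzyme A, and the fatty acid binding proteins (FABPs) hold fatty acids in solution and deliver them to enzymes, membranes, and nuclear receptors. PPARα, the receptor deleted in Null mice, is activated by fatty acids and controls many genes of their use, and several of the 8 genes are known targets of it. FABP1 is the main binding protein of hepatocytes, FABP2 is best known from the intestine, FABP4 from adipocytes, macrophages, and capillary endothelium, and FABP5 from the epidermis and macrophages.

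The members had 1 to 4 probe sets each. Of the 16 probe sets, 13 lay above the median of all values on the arrays (5.65 on the log2 scale) in at least 5 arrays and were tested among 24069 probe sets kept by that rule. The 3 that were not kept all belong to Fabp4 (1424155_at, 1425809_at, and 1451263_a_at) and were above the median in 0 of 30 arrays, with group means between 3.70 and 4.50. Every value below is a log2 RMA value of 1 probe set, a difference between such values, or a fold made from it, and levels of different probe sets are not compared, because probes differ in brightness. A probe set was called at an adjusted p under 0.05 (limma, Benjamini-Hochberg over the 24069 probe sets).

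The replicates 4 and 5 labeled WT 0 mg/kg stood apart from their group. Their mean over the 3 probe sets of Ppara was 8.66 and 8.74, against 9.93 to 10.77 in the other 13 WT arrays and 8.78 to 9.81 in the 15 Null arrays. In 113 probe sets that separated the genotypes elsewhere, these 2 arrays lay on the Null side in 98.2% and 97.3%, against 0 to 15.04% in the other WT arrays. Cyp2b10, a cytochrome P450 that was higher in every PFOS-treated array of either genotype than in the other controls, was at 13.04 and 12.99 in these 2 arrays, against 8.11 to 8.43 in the other WT 0 mg/kg arrays, 7.01 to 9.05 in Null 0 mg/kg, and 12.02 to 13.37 in Null 10 mg/kg. They count as untreated WT controls below by their labels alone. Values without them, a choice made after seeing the data, are given beside many comparisons of the members with WT 0 mg/kg, but not beside all. Differences of single genes outside the members are given with all arrays only. The 8 hepatocyte markers were near the top of the scale in every array (list mean 13.65 to 13.91, where the highest value in the table was 14.50), and were slightly lower in all 5 arrays of WT 10 mg/kg (13.65 to 13.72) than in all 25 others.

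To show the start regions of the 3 genes whose response to PFOS differed between the genotypes (below), the 250 bases before each gene's start are printed 5′ to 3′ along the gene's strand, from RefSeq on build GRCm38.p6. They are chr5:17835897-17836146 on the minus strand, chr6:71199629-71199878 on the plus strand, and chr3:122894822-122895071 on the plus strand. Capitals mark matches on either strand to AGGTCA, the core letters bound by PPARα and related nuclear receptors, to its direct repeat AGGTCANAGGTCA with at most 1 difference, and to TATAAA on the gene's strand.
Cd36: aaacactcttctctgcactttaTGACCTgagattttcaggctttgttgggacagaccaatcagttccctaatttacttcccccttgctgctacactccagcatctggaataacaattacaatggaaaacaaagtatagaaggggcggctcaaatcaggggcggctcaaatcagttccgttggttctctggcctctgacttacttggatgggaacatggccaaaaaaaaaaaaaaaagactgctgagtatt
Fabp1: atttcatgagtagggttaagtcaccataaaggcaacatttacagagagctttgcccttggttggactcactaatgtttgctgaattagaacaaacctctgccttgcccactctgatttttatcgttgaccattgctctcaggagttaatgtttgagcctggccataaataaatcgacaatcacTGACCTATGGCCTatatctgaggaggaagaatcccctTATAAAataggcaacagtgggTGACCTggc
Fabp2: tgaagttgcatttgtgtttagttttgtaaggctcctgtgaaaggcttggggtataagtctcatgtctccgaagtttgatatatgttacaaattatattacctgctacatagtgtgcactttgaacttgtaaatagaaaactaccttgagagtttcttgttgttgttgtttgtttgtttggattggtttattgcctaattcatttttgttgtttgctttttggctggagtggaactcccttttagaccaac
The Fabp1 window held TGACCTATGGCCT, the direct repeat read on the opposite strand with 1 difference, starting 67 bases before the gene's start. Of all 32851 windows of this length, 0.484% held the repeat with at most 1 difference and 0.0335% held it exactly. The Fabp1 window also held a separate core 9 bases before the start and a TATAAA 30 bases before it, and 14.0% and 7.59% of all windows held these motifs. The Cd36 window held 1 core 228 bases before the start, and the Fabp2 window held none of the 3 motifs. Windows were given for 6 of the 8 genes, with 3 for Slc27a1, and 3 of these 8 windows held a core (Cd36, Slc27a2, and Fabp1). A match describes the letters and does not show binding.

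Cd36 had the largest log2 rise of the members in WT mice at 10 mg/kg. The log2 values of its brightest probe set (1423166_at) were 7.86, 7.77, 8.48, 8.74, and 8.89 in WT 0 mg/kg, 9.00, 8.06, 9.28, 8.76, and 9.15 in WT 3 mg/kg, and 10.72, 10.72, 10.85, 10.28, and 10.61 in WT 10 mg/kg. In Null mice they were 8.41, 8.73, 8.34, 8.22, and 8.15 at 0 mg/kg, 9.24, 9.35, 8.51, 8.92, and 9.07 at 3 mg/kg, and 9.50, 9.07, 9.14, 9.43, and 8.74 at 10 mg/kg. Every array of WT 10 mg/kg lay above every other array in the study, and the arrays of Null 10 mg/kg lay above all arrays of Null 0 mg/kg, by a small margin.

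In WT mice at 10 against 0 mg/kg, Cd36 was 4.88-fold higher by probe set 1423166_at (log2 difference 2.29, SE 0.236, adjusted p = 2.68e-05 by limma). The other probe sets gave 5.88-fold (1450883_a_at, adjusted p = 3.25e-05) and 4.03-fold (1450884_at, adjusted p = 4.41e-05). At 10 against 3 mg/kg the 3 probe sets were higher by 1.78, 1.92, and 1.57 on the log2 scale (adjusted p = 0.00137 to 0.00187), whereas at 3 against 0 mg/kg their differences of 0.50, 0.63, and 0.44 did not pass (adjusted p = 0.872 to 0.96). The 2 arrays that stood apart were the highest of their group in all 3 probe sets. Without them, the log2 differences at 10 against 0 mg/kg were 2.60, 2.91, and 2.31, and those at 3 against 0 mg/kg were 0.81, 0.99, and 0.74, which still did not pass (adjusted p = 0.143 to 0.179).

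**Figure D1:**
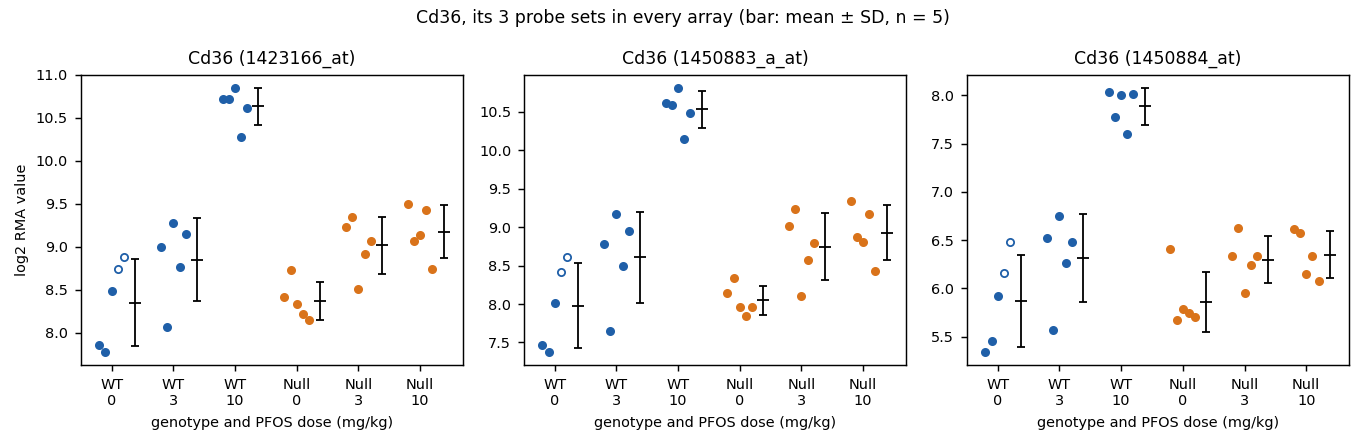
Log2 RMA values (vertical axis) of the 3 Cd36 probe sets in each array, by genotype and PFOS dose in mg/kg (horizontal axis), with the mean and SD of the 5 arrays of a group beside them. Open circles are the 2 arrays labeled WT 0 mg/kg that lay with the Null arrays. In each panel the WT 10 mg/kg arrays sit above all other arrays, and the Null arrays rise less.

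In Null mice Cd36 also rose, by less. At 10 against 0 mg/kg it was 1.75-fold higher by 1423166_at (log2 difference 0.81, SE 0.165, adjusted p = 0.009) and 1.84-fold by 1450883_a_at (adjusted p = 0.0131), and the difference of 0.49 in 1450884_at did not pass (adjusted p = 0.0658). At 3 against 0 mg/kg the difference was 0.65 in 1423166_at (adjusted p = 0.0385), 0.69 in 1450883_a_at (adjusted p = 0.0562), and 0.43 in 1450884_at (adjusted p = 0.133). The call at 3 mg/kg rested on a narrow margin and was lost when any of 8 of the 15 Null arrays was left out (Null 0 mg/kg replicates 1, 3, 4, and 5 and Null 3 mg/kg replicates 1, 2, 4, and 5). Over all 15 such fits the adjusted p by limma ran from 0.0119 to 0.108. Between 3 and 10 mg/kg the Null values differed by 0.16, 0.18, and 0.05, with 95% intervals that included 0.

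The response of Cd36 to 10 mg/kg was tested between genotypes directly. The log2 response in Null mice minus that in WT mice was -1.48 (SE 0.303, adjusted p = 0.00824) by 1423166_at, -1.68 (adjusted p = 0.00908) by 1450883_a_at, and -1.53 (adjusted p = 0.00374) by 1450884_at. These calls were kept when any 1 of the 30 arrays was left out, and without the 2 arrays that stood apart the differences were -1.79, -2.04, and -1.82. At 3 mg/kg the differences of 0.15, 0.06, and -0.01 did not pass, and the interval for 1423166_at ran from -0.48 to 0.77. With the pair left out they were -0.16, -0.30, and -0.31 and did not pass. Ordered by the group mean of 1423166_at, WT 10 mg/kg (10.64 ± 0.21, SD, n = 5) stood first, followed by Null 10 mg/kg (9.18 ± 0.30), Null 3 mg/kg (9.02 ± 0.33), WT 3 mg/kg (8.85 ± 0.48), Null 0 mg/kg (8.37 ± 0.22), and WT 0 mg/kg (8.35 ± 0.51). Apart from the step below WT 10 mg/kg, the arrays of neighboring groups overlapped.

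Of the 13 probe sets, 9 were higher in WT mice at 10 against 0 mg/kg and 0 were lower, where 5.85% of all 24069 probe sets were called higher and 4.55% lower. The 9 covered 6 of the 8 genes, with Fabp2 and Fabp5 not called. In 7 of them (Cd36 with 3 probe sets, Fabp1 with 2, Slc27a4, and Fabp4) all arrays at 10 mg/kg lay above all arrays at 0 mg/kg, which held in that direction for 4.46% of all probe sets. The median log2 difference of the 13 was 0.39. Without the 2 arrays that stood apart, 7 of the 13 were called, with Slc27a1 and Slc27a2 lost, where 11% of all probe sets were called higher and 13.5% lower.

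Each of the 3 SLC27 transport proteins had a called rise in WT mice at 10 mg/kg, and none exceeded 1.31-fold. The calls of Slc27a1 and Slc27a2 were lost with no filter, with array weights, with the compared groups alone, and with the replicate block. Their adjusted p by limma then ran from 0.0557 to 0.101. Slc27a4, a transport protein with acyl-CoA synthetase activity, had log2 values of 9.11, 9.10, 9.07, 9.16, and 9.03 in WT 0 mg/kg, 9.14, 9.24, 9.11, 9.14, and 9.11 in WT 3 mg/kg, and 9.58, 9.63, 9.40, 9.27, and 9.53 in WT 10 mg/kg. The WT 10 mg/kg arrays lay above the arrays of both lower doses. Slc27a4 was 1.31-fold higher at 10 against 0 mg/kg (log2 difference 0.39, SE 0.068, adjusted p = 0.00274) and higher by 0.33 at 10 against 3 mg/kg (adjusted p = 0.0153). The difference from 0 mg/kg was again 0.39 without the 2 arrays that stood apart (adjusted p = 0.00389). The call at 10 against 3 mg/kg was lost without WT 10 mg/kg replicate 1 (adjusted p = 0.051). In Null mice the Slc27a4 arrays of the 3 doses overlapped, between 8.86 and 9.33, and the differences of 0.12 and 0.10 at 3 and 10 mg/kg did not pass. Null minus WT in the response to 10 mg/kg was -0.29 and did not pass (95% interval -0.51 to -0.08, adjusted p = 0.128, and 0.147 without the 2 arrays).

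Slc27a2, a transport protein with very long-chain acyl-CoA synthetase activity that is prominent in liver, had the tightest replicates of the 13 probe sets, with a pooled SD within groups of 0.0869, at percentile 2.90 of all kept probe sets. Its log2 values were 13.57, 13.52, 13.37, 13.27, and 13.37 in WT 0 mg/kg, 13.70, 13.66, 13.66, 13.68, and 13.63 in WT 3 mg/kg, and 13.61, 13.65, 13.75, 13.56, and 13.62 in WT 10 mg/kg. All arrays at 3 mg/kg lay above all controls, and at 10 mg/kg 1 array (13.56) fell just under the highest control. The log2 difference was 0.25 at 3 mg/kg (adjusted p = 0.31) and 0.22 at 10 mg/kg (SE 0.064, adjusted p = 0.0419). At 3 mg/kg it was 0.18 without the 2 arrays that stood apart (adjusted p = 0.339 by limma). The call at 10 mg/kg was not kept without the 2 arrays that stood apart, which were the lowest of their group (0.15, adjusted p = 0.123), nor when any of 12 of the 15 WT arrays was left out (all except WT 0 mg/kg replicate 1, WT 3 mg/kg replicate 2, and WT 10 mg/kg replicate 4). In Null mice the differences were 0.13 and 0.07 and did not pass. Between genotypes, Null minus WT was -0.21 at 3 mg/kg (adjusted p = 0.03) and -0.25 at 10 mg/kg (adjusted p = 0.00941), while at 0 mg/kg the difference of -0.10 did not pass (-0.17 without the 2 arrays, adjusted p = 0.252). The call at 3 mg/kg was lost without any of WT 3 mg/kg replicates 1, 3, and 4 or Null 3 mg/kg replicates 3 and 4 (adjusted p up to 0.0838), with no filter (adjusted p = 0.058), and with the compared groups alone (adjusted p = 0.0588). The call at 10 mg/kg was lost with the compared groups alone (adjusted p = 0.0656).

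Slc27a1, a transport protein best known from muscle and fat, was near the lower end of the kept values. By 1435658_at the log2 values were 6.27, 6.10, 6.10, 5.96, and 6.00 in WT 0 mg/kg and 6.43, 6.52, 6.44, 6.12, and 6.29 in WT 10 mg/kg, so the groups overlapped. The log2 difference was 0.27 (SE 0.081, adjusted p = 0.0425), and in 1422811_at it was 0.19 and did not pass (adjusted p = 0.0706). Without the 2 arrays that stood apart, the difference in 1435658_at was 0.20 and did not pass (adjusted p = 0.117). The call was also lost when any of 11 of the 15 WT arrays was left out (WT 0 mg/kg replicates 2 to 5, WT 3 mg/kg replicates 3 to 5, and WT 10 mg/kg replicates 1, 2, 3, and 5). In Null mice the differences of both probe sets at either dose lay between -0.04 and 0.06 and did not pass. At 10 mg/kg Null minus WT was -0.27 in 1435658_at (adjusted p = 0.0146), a call lost without WT 10 mg/kg replicate 2 (adjusted p = 0.0544) and with the compared groups alone (adjusted p = 0.104).

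**Figure D2:**
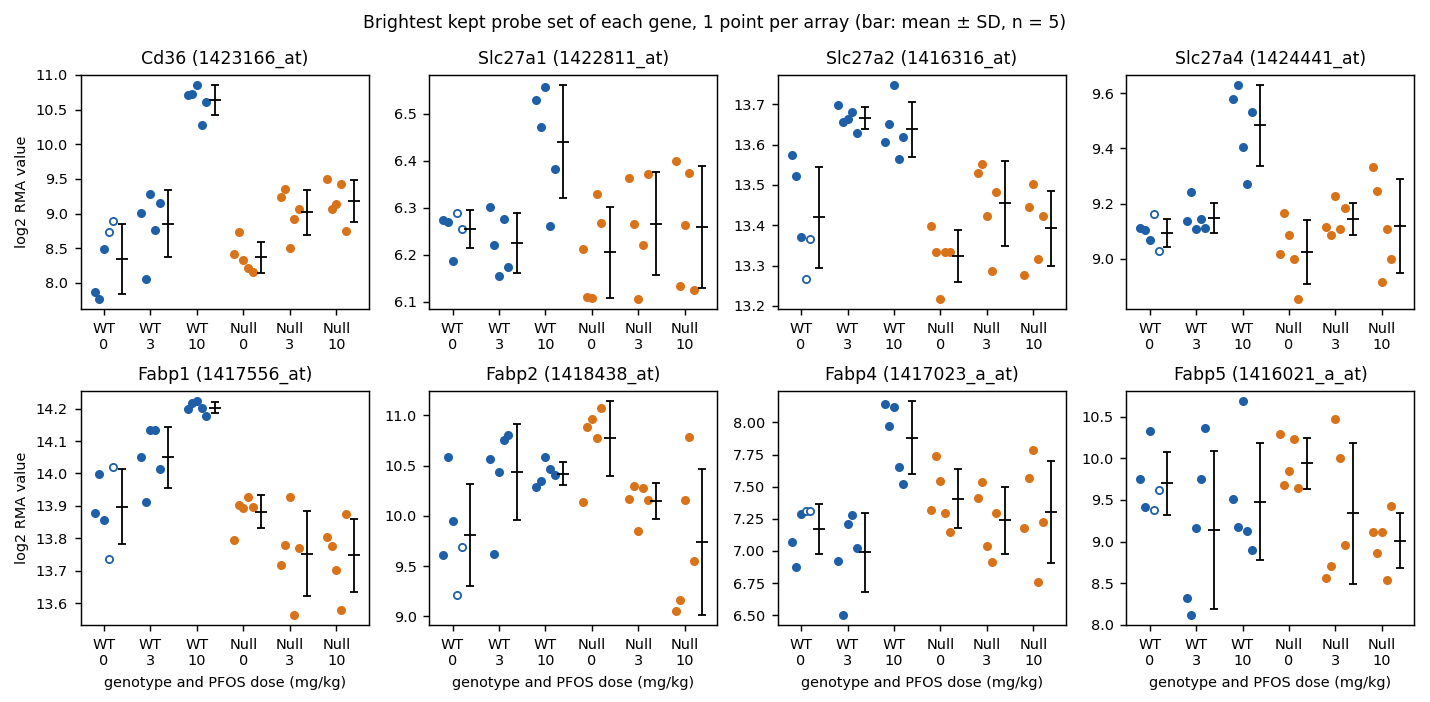
Log2 RMA values (vertical axes) of the brightest kept probe set of each of the 8 genes in each array, by genotype and PFOS dose in mg/kg (horizontal axes), with the mean and SD of 5 arrays beside each group and open circles for the 2 arrays that lay with the Null arrays. Cd36, Slc27a4, Fabp1, and Fabp4 separate WT 10 mg/kg from WT 0 mg/kg, Fabp2 is highest on average in Null 0 mg/kg, and Fabp5 spreads widely within groups.

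Fabp1 was among the brightest signals on the array, and it rose in WT mice and was not called in Null mice. By 1417556_at the log2 values were 13.88, 14.00, 13.86, 13.74, and 14.02 in WT 0 mg/kg, 14.05, 13.91, 14.13, 14.13, and 14.02 in WT 3 mg/kg, and 14.20, 14.22, 14.22, 14.20, and 14.18 in WT 10 mg/kg. In Null mice they were 13.79, 13.90, 13.89, 13.93, and 13.90 at 0 mg/kg, 13.72, 13.78, 13.93, 13.56, and 13.77 at 3 mg/kg, and 13.81, 13.78, 13.70, 13.58, and 13.88 at 10 mg/kg. The WT 10 mg/kg arrays lay above all others and close to each other (SD 0.018), and the WT arrays at 3 mg/kg overlapped those at 0 mg/kg. How far the top of the scale, 14.50, compressed these values was not tested.

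In WT mice Fabp1 was 1.24-fold higher at 10 against 0 mg/kg by 1417556_at (log2 difference 0.31, SE 0.065, adjusted p = 0.0097) and 1.34-fold by 1448764_a_at (0.42, SE 0.093, adjusted p = 0.012). These differences were 0.29 (adjusted p = 0.00757) and 0.39 (adjusted p = 0.00367) without the 2 arrays that stood apart. In Null mice the differences were -0.14 (adjusted p = 0.308) and -0.30 (adjusted p = 0.118) and did not pass, although all Null 10 mg/kg arrays of 1448764_a_at (12.63 to 12.87) lay below all Null 0 mg/kg arrays (12.94 to 13.30). Null minus WT in the response to 10 mg/kg was -0.44 (SE 0.094, adjusted p = 0.0108) and -0.72 (SE 0.146, adjusted p = 0.00784), and both calls were kept whichever array was left out and without the 2 arrays (-0.43 and -0.69, adjusted p = 0.0162 and 0.01). At 3 mg/kg the corresponding -0.28 and -0.33 did not pass (adjusted p = 0.143 and 0.29). Without the 2 arrays they were -0.27 and -0.31 and did not pass (adjusted p = 0.221 and 0.361 by limma). At 10 mg/kg Null minus WT in level was -0.46 (adjusted p = 2.49e-05) and -0.51 (adjusted p = 0.00135), and at 0 mg/kg the differences of -0.02 and 0.21 did not pass (-0.03 and 0.18 without the 2 arrays).

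Fabp2 also responded differently in the genotypes, with a fall in Null mice at 10 mg/kg. The log2 values were 9.61, 10.58, 9.95, 9.22, and 9.69 in WT 0 mg/kg, 10.56, 9.62, 10.44, 10.76, and 10.81 in WT 3 mg/kg, and 10.29, 10.35, 10.59, 10.46, and 10.41 in WT 10 mg/kg. In Null mice they were 10.14, 10.89, 10.97, 10.78, and 11.08 at 0 mg/kg, 10.17, 10.29, 9.85, 10.28, and 10.16 at 3 mg/kg, and 9.05, 9.16, 10.16, 10.78, and 9.55 at 10 mg/kg. The WT groups overlapped and so did Null 10 and 0 mg/kg, since 2 of the Null 10 mg/kg arrays lay within the range of their controls. In WT mice the log2 differences were 0.63 at 3 mg/kg and 0.61 at 10 mg/kg and did not pass (adjusted p = 0.761 and 0.0961). They were 0.39 and 0.37 without the 2 arrays that stood apart (adjusted p = 0.599 and 0.286).

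In Null mice Fabp2 was 2.04-fold lower at 10 against 0 mg/kg (log2 difference -1.03, SE 0.266, adjusted p = 0.0284), and the difference of -0.62 at 3 mg/kg did not pass (adjusted p = 0.226). The call at 10 mg/kg was lost when any of 7 Null arrays was left out (Null 0 mg/kg replicates 2 to 5 and Null 10 mg/kg replicates 1, 2, and 5), with adjusted p up to 0.0706, and in a fit of the compared groups alone (adjusted p = 0.0769). Null minus WT in the response to 10 mg/kg was -1.64 (SE 0.372, 95% interval -2.40 to -0.87, adjusted p = 0.0156). This call was kept whichever array was left out, and without the 2 arrays that stood apart it was -1.40 (adjusted p = 0.0419). At 0 mg/kg Fabp2 was higher in Null than in WT mice by 0.96, which did not pass (adjusted p = 0.064), and by 0.72 without the 2 arrays (adjusted p = 0.249). Of 7 intestinal marker genes, Vil1, Lct, Cdx1, and Muc2 were above the median in 0 of 30 arrays, Cdx2 in 3, Alpi in 29, and Apoa4, an apolipoprotein that liver also makes, in 30 (median 13.40). Their part in the Fabp2 values was not tested.

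Fabp4, measured by 1417023_a_at alone, rose in WT mice at the high dose. Its log2 values were 7.07, 6.87, 7.29, 7.31, and 7.31 in WT 0 mg/kg, 6.92, 6.50, 7.21, 7.28, and 7.02 in WT 3 mg/kg, and 8.14, 7.97, 8.12, 7.65, and 7.52 in WT 10 mg/kg. The WT 10 mg/kg arrays lay above those of both lower doses. The rise was 1.64-fold at 10 against 0 mg/kg (adjusted p = 0.0102, 95% interval on the log2 scale 0.39 to 1.04) and 1.86-fold at 10 against 3 mg/kg (log2 difference 0.89, SE 0.153, adjusted p = 0.00576). The log2 difference at 10 against 0 mg/kg was 0.81 without the 2 arrays that stood apart (adjusted p = 0.00585). In Null mice the arrays of the 3 doses overlapped, between 6.76 and 7.79, and the differences of -0.17 and -0.10 did not pass.

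Null minus WT in the Fabp4 response to 10 mg/kg was -0.82 and did not pass (95% interval -1.31 to -0.32, adjusted p = 0.0607). It was called at adjusted p = 0.0431 with every array shifted to the same median, and its adjusted p was 0.0503 without the 2 arrays that stood apart. At 10 mg/kg Null minus WT in level was -0.58 (adjusted p = 0.0246), a call lost without any of WT 10 mg/kg replicates 1, 2, and 3 or Null 10 mg/kg replicate 4 (adjusted p up to 0.102). It was also lost with array weights (-0.38, adjusted p = 0.122) and with the compared groups alone (adjusted p = 0.0994). Over 8 adipocyte markers the list mean was 6.48 to 6.80 in WT 10 mg/kg and 6.18 to 6.61 in WT 0 mg/kg. Of 4 kept markers 1 was called higher (Lipe, hormone-sensitive lipase, 0.57, adjusted p = 0.0104), where 7.63% of all named genes were. The list's defining genes Adipoq, Lep, and Adig were above the median in 0 of 30 arrays, and Adipoq lay between 2.87 and 3.56. The macrophage list ran from 8.02 to 8.84 in WT 10 mg/kg and 8.31 to 9.58 in WT 0 mg/kg with 0 of 14 called. The endothelial list ran from 7.81 to 8.09 and 7.71 to 8.28 with 0 of 12 called. Without the 2 arrays that stood apart, 1 and 4 were lower, where 13.5% of all probe sets were called lower. These counts are of genes, each read by 1 probe set, and the share is of probe sets, so they are unlike measures. The part of these cells in the Fabp4 values was not tested. In bulk liver, more cells of a type and more RNA per cell cannot be told apart.

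Fabp5 varied widely between mice of the same group. The pooled SD within groups was 0.639 for 1416021_a_at and 0.612 for 1416022_at, at percentiles 99.21 and 99.05 of all kept probe sets. By 1416021_a_at the log2 values were 9.76, 9.42, 10.32, 9.38, and 9.62 in WT 0 mg/kg, 8.32, 8.12, 9.16, 9.75, and 10.36 in WT 3 mg/kg, and 9.51, 9.18, 10.68, 9.13, and 8.90 in WT 10 mg/kg. In Null mice they were 10.29, 9.67, 9.85, 10.23, and 9.65 at 0 mg/kg, 8.56, 8.71, 10.47, 10.00, and 8.96 at 3 mg/kg, and 9.11, 8.86, 9.12, 8.54, and 9.43 at 10 mg/kg. The mice given 3 mg/kg spread the most in both genotypes, and in Null 10 mg/kg all arrays lay below all controls.

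The spread of Fabp5 was shared by its probe sets, which correlated at r = 0.985 over the 30 arrays and at r = 0.985 after group means were removed. Probe sets of a gene read the same RNA sample, so this is a description of the arrays. In Null mice the log2 differences at 10 against 0 mg/kg were -0.93 (adjusted p = 0.0766) and -0.82 (adjusted p = 0.108) and did not pass, with no overlap in either probe set, which in that direction held for 3 of the 13 probe sets and for 4.15% of all. In a fit of the compared groups alone both were called (adjusted p = 0.0161 and 0.0307). In WT mice the differences of -0.22 (95% interval -1.06 to 0.62) and -0.13 did not pass, nor did those of -0.35 and -0.22 without the 2 arrays that stood apart. The genotype difference in response did not pass either (-0.71, 95% interval -1.80 to 0.38, and -0.58 without the 2 arrays). Beside the Null values, 3 of 14 macrophage markers were lower in Null mice at 10 mg/kg (Cd5l, which fell by 0.48, C1qa, which fell by 0.42, and C1qc, which fell by 0.51), and the list mean was 8.40 to 9.10 against 8.85 to 9.30 at 0 mg/kg. Of all named genes, 5.08% were called lower in that comparison. The part of the macrophage markers in the Fabp5 values was not tested.

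**Figure D3:**
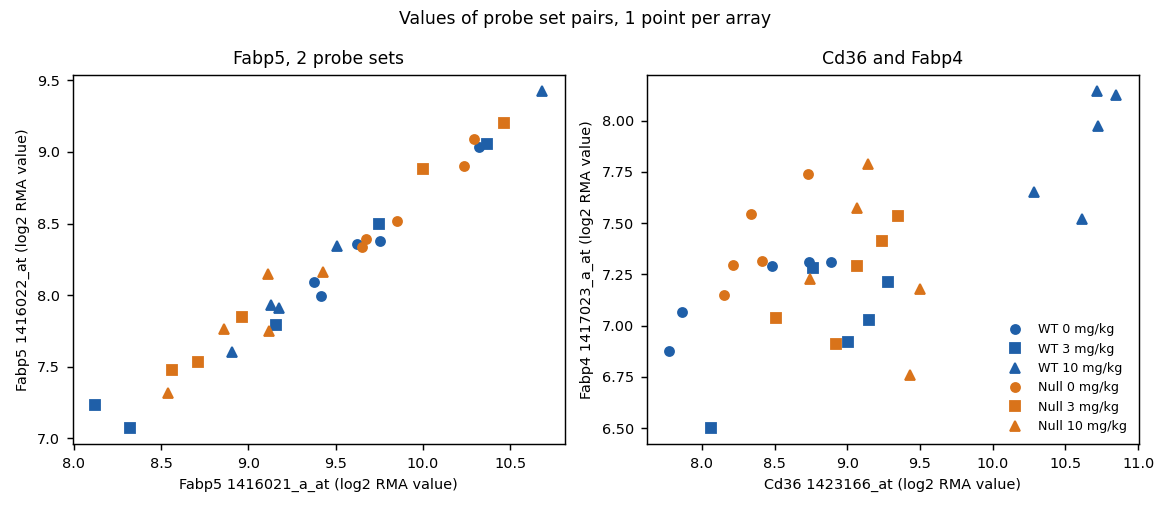
Left, log2 RMA values of the Fabp5 probe sets 1416021_a_at (horizontal axis) and 1416022_at (vertical axis), and right, of Cd36 1423166_at (horizontal axis) and Fabp4 1417023_a_at (vertical axis), with 1 point per array, color for genotype, and shape for PFOS dose. The Fabp5 points follow 1 line (r = 0.985) with doses mixed along it, and the WT 10 mg/kg arrays stand apart in the right panel.

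Over the dose comparisons, all called members of WT mice were higher, and Fabp2 was the one called lower in Null mice. At 3 against 0 mg/kg in WT mice, 0 of 13 probe sets were called by limma at an adjusted p under 0.05 (0.162% of all). Without the 2 arrays that stood apart it was again 0, where 0.715% of all were called. With all arrays there were 6 at an unadjusted p under 0.05, and by the methods' t-test there was 1 (Slc27a2). The shares of all probe sets under those looser rules were not computed, so these counts have no reference here. At 10 against 3 mg/kg in WT mice 5 were higher (2.75% of all). In Null mice 1 was higher at 3 mg/kg (1.57% of all), and at 10 mg/kg 2 were higher and 1 lower (3.16% and 3.88% of all). Between 10 and 3 mg/kg in Null mice 0 of the 13 were called, with 0 at an unadjusted p under 0.05, 0 by the methods' t-test, and 0% of all probe sets called.

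All 13 differences in response to 10 mg/kg, Null minus WT, were below 0, with a median of -0.71, and 6 were called (Cd36 with 3 probe sets, Fabp1 with 2, and Fabp2), where 2.4% of all probe sets were called in that direction. At 3 mg/kg 0 of 13 were called (0.818% of all), with 3 at an unadjusted p under 0.05 by limma, a rule whose share of all was not computed. Without the 2 arrays that stood apart the counts were again 6 at 10 mg/kg and 0 at 3 mg/kg. Of all probe sets, 2.86% were then called lower at 10 mg/kg and 0.141% in either direction at 3 mg/kg. These comparisons share their control groups. At 0 mg/kg 0 of 13 differed between genotypes by limma (1.25% of all, and again 0 without the 2 arrays, where 1.89% of all differed). At an unadjusted p under 0.05 there was 1 (Fabp2), again without a share of all. At 3 mg/kg 2 were lower in Null mice (Slc27a2 and Fabp1 1417556_at, 4.35% of all), and at 10 mg/kg 9 were lower (6.3% of all), with 6 genes among them. With the compared groups alone 5 of these 9 calls were kept, and those of Slc27a1, Slc27a2, Slc27a4 (adjusted p = 0.056), and Fabp4 were lost. For Fabp2 at 10 mg/kg, Null minus WT was -0.68 and did not pass (adjusted p = 0.0917).

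**Figure D4:**
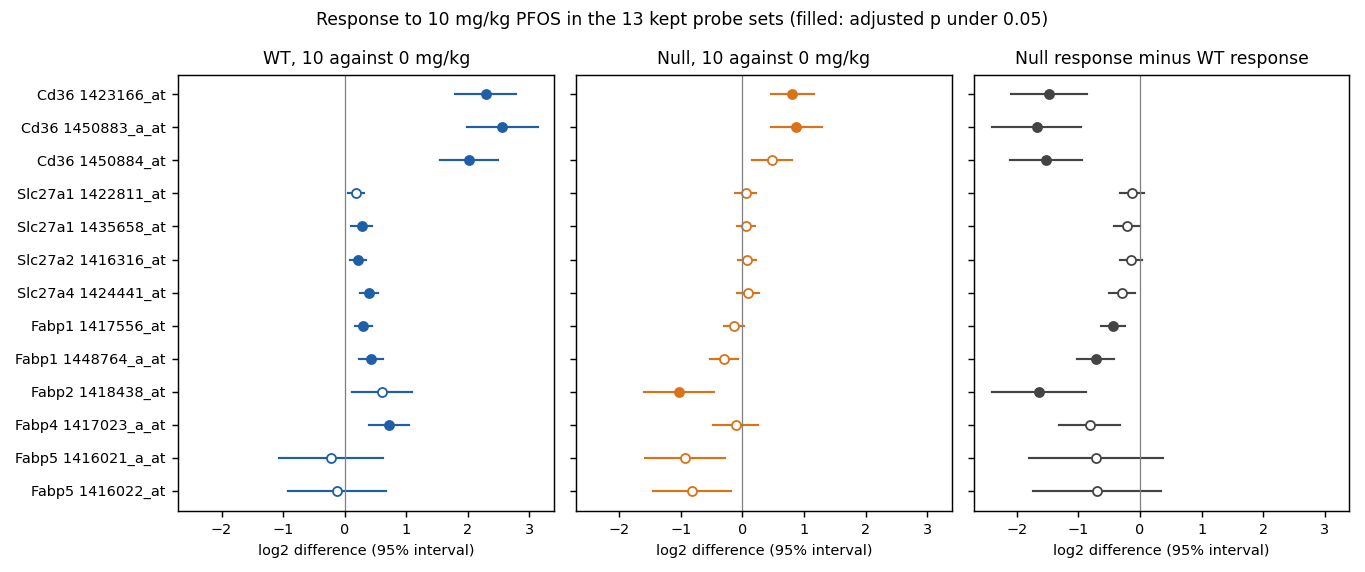
Log2 difference with its 95% interval (horizontal axes) for the 13 kept probe sets (vertical axis) in WT mice and Null mice at 10 against 0 mg/kg and for the Null response minus the WT response, with filled points for an adjusted p under 0.05. The Cd36 points lie farthest right in WT mice, the Fabp2 point lies farthest left in Null mice, and all 13 points of the last panel lie left of 0.

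The members also differed in how alike they were across arrays. The Cd36 probe sets correlated at r = 0.964 to 0.997 over the 30 arrays, those of Fabp1 at 0.804, and those of Slc27a1 at 0.701. Cd36 1423166_at and Fabp4 correlated at r = 0.666, and at 0.508 after group means were removed, whereas Cd36 and Slc27a4 correlated at 0.754 and at 0.088. The arrays share the doses and the genotypes, so these values are descriptions. The genes whose values were most like those of Cd36 over the 30 arrays were Acot2, a mitochondrial acyl-CoA thioesterase (r = 0.895), Nln (0.889), and Treh (0.886). Those most like Fabp1 were Hsd17b11 (0.912), Nudt9 (0.905), and Abhd6 (0.901), and those most like Fabp2 were Smlr1 (0.810), Sft2d1 (0.730), and 2610001J05Rik (0.726).

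For Slc27a1 the closest genes were Lipe (r = 0.760), Pcsk4 (0.724), and Fam102a (0.723), for Slc27a2 they were Ugt3a1 (0.889), Ephx2 (0.878), and Hsdl2 (0.874), and for Slc27a4 they were Gatad2a (0.917), Tysnd1 (0.885), and Fam102a (0.884). Fabp4 was most like Tmem88 (0.826), Lgals1 (0.806), and Sparc (0.774), and the closest genes to Fabp5 were Lsm6 (0.725) and Pde7b (0.723).

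Genes that act beside the members were read by 1 probe set each, the one with the lowest p in any comparison of a dose with its controls. By that rule 7.63% of all 12156 named genes were higher in WT mice at 10 against 0 mg/kg and 5.83% lower, and 4.15% and 5.08% in Null mice. Of the other SLC27 and FABP genes, 3 of 9 were measured and 0 were called, with log2 differences of -0.13 in Slc27a5, the bile acid-CoA ligase (adjusted p = 0.162), -0.32 in Fabp7 (adjusted p = 0.21), and 0.06 in Fabp3 (adjusted p = 0.7). Slc27a3, Fabp6, Fabp9, Fabp12, and Pmp2 had no kept probe set. In Null mice Fabp7 differed by -0.86 at 10 mg/kg and did not pass (adjusted p = 0.0607).

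Of the genes that activate fatty acids or carry acyl-CoA, 12 of 15 were measured, and 3 were higher and 0 lower in WT mice at 10 mg/kg (median 0.12). These were the long-chain acyl-CoA synthetases Acsl3 (0.76, SE 0.114, adjusted p = 0.000894) and Acsl5 (0.39, adjusted p = 0.0188), and Dbi, the acyl-CoA binding protein (0.45, adjusted p = 0.0202). Acsl4 differed by 0.50 and did not pass (adjusted p = 0.0522). In Null mice 0 of the 12 were called at 10 mg/kg by limma, with 0.70 in Acsl3 (adjusted p = 0.101) and 0.35 in Acsl5 (adjusted p = 0.0707). The genotype difference in response was -0.05 for Acsl3 and -0.04 for Acsl5 and did not pass. Without the 2 arrays that stood apart, 4 of the 12 were higher and 2 lower in WT mice at 10 mg/kg, and 1 was higher at 3 mg/kg. Of all probe sets, 11% were then called higher and 13.5% lower at 10 mg/kg, and 0.548% higher at 3 mg/kg. Here and in the lists below, counts without the 2 arrays are of genes and these shares are of probe sets, so they are unlike measures.

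Of the genes that release fatty acids from lipoproteins, control that release, or partner with the uptake proteins in the membrane, 16 of 18 were measured, and 4 were higher and 0 lower in WT mice at 10 mg/kg (median 0.16). Mfsd2a, a transporter of lysophosphatidylcholine, rose by 1.31 (SE 0.357, adjusted p = 0.0313), Lipg, endothelial lipase, by 1.18 (adjusted p = 0.0101), Vldlr, the very low density lipoprotein receptor, by 0.88 (adjusted p = 0.00735), and Angptl4, an inhibitor of lipoprotein lipase, by 0.62 (adjusted p = 0.00755). In Null mice 1 of the 16 was called at 10 mg/kg, Scarb1, a lipoprotein receptor related to CD36, which fell by 0.37 (adjusted p = 0.039). Of all named genes, 5.08% were called lower in that comparison. Vldlr was the single gene of the list whose response differed between genotypes (-1.18, SE 0.272, adjusted p = 0.017, where 2.95% of all genes were called in that direction), and Lipg differed by -1.13 (adjusted p = 0.0535). Mfsd2a differed by 1.01 in Null mice (adjusted p = 0.0974). Without the 2 arrays that stood apart, 4 were higher and 1 lower in WT mice, where 11% of all probe sets were called higher and 13.5% lower.

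Of 13 nuclear receptors and partners that control lipid genes, 0 were higher and 2 lower in WT mice at 10 mg/kg. Ppargc1a, a coactivator of PPARα, fell by 1.01 (adjusted p = 0.00911) and Hnf4a, a hepatocyte receptor, fell by 0.42 (adjusted p = 0.0343). Each was read by the probe set with the lowest p. The paper found no up-regulation of Ppargc1a by arrays or by RT-PCR in separate mice, and describes its expression as unchanged by PFOS. Without the 2 arrays that stood apart, 1 of the 13 was higher and 3 lower, where 11% of all probe sets were called higher and 13.5% lower. In Null mice at 10 mg/kg Srebf1, a regulator of fatty acid synthesis, rose by 0.51 (adjusted p = 0.0197), and the Ppara probe set fell by 0.39 (adjusted p = 0.0484). As a reference for the members, 11 of 12 measured target genes of PPARα were higher in WT mice at 10 mg/kg (median 2.02) and 5 of 12 in Null mice (median 0.60). Of all named genes, 7.63% were called higher in WT mice and 4.15% in Null mice. At 3 mg/kg 7 of these 12 were higher in WT mice (median 1.00), where 0.239% of all genes were called higher, and 0 of the 13 member probe sets were called at that dose. The targets were read by the probe set with the lowest p and the members by every kept probe set, so these counts are unlike measures. The target counts are not given without the 2 arrays that stood apart.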

How the data were processed

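Liver RNA of 30 mice was hybridized to Affymetrix mouse genome arrays, and groups and replicate numbers came from the labels, which state separate animals. The authors corrected the background, quantile normalized the arrays and summarized them by RMA, and the table they deposited holds log2 values of 45101 probe sets. Labeling and hybridization formed a single block, and the number of arrays limits the precision (array medians 5.60 to 5.70). Here 64 controls were dropped, and a probe set was tested if it exceeded 5.65, the median over the whole table, on 5 or more arrays, since the methods name a filter and not its rule. Names came from a platform table (34958 probe sets with 1 gene, 932 with several, 9211 with none) and were updated by Entrez number. Doses were compared within each genotype (15 arrays), and genotypes and responses over 30 arrays, using lmFit and eBayes of limma 3.58.1 (R 4.3.3). Benjamini-Hochberg adjustment covered the 24069 probe sets tested. The steps were tested on simulated data.

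All probe sets of the members were reported. Other genes were named by the 4 smallest p values of a list, by a call where 5 or fewer of a list were called, or by the 3 highest correlations with a member. The members and lists were chosen with earlier results of these data known. Alternatives were no filter, a stricter filter (15 or more arrays), a common median, a mean-dependent and robust spread, array weights, the compared groups alone, a replicate block, all 30 arrays in 1 fit, the methods' t-test at an unadjusted p of 0.0025, and each array left out. Leaving out WT 0 mg/kg replicates 4 and 5 was added after seeing the data. Promoter windows came from RefSeq, GRCm38.p6. Protein sequences were not used here.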

Additional observations from a re-analysis of the deposited data

Results flagged for a closer look

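In 78 groups of 5 arrays, 4 held an array set off from the rest of its group, where chance alone sets off about 1 in 20 groups. Null 0 mg/kg replicate 1 was high in Cd36 1450884_at at 6.41, with the next array at 5.78. This probe set was the only one of Cd36 not called in Null mice at 10 mg/kg, and a link between the 2 was not tested. In Slc27a4, WT 3 mg/kg replicate 2 was high at 9.24, with the next at 9.14. In Fabp1 1417556_at, Null 0 mg/kg replicate 1 was low at 13.79, with the next at 13.89, and in Fabp1 1448764_a_at, Null 0 mg/kg replicate 2 was high at 13.30, with the next at 13.04.

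By the interaction term over 30 arrays, 6 probe sets responded differently to 10 mg/kg in the genotypes. Null minus WT was -1.48, -1.68, and -1.53 on the log2 scale for Cd36, -0.44 and -0.72 for Fabp1, and -1.64 for Fabp2 (adjusted p = 0.00374 to 0.0156 by limma). For Cd36 both genotypes rose and the rise was smaller in Null mice, whereas for Fabp1 and Fabp2 the fitted changes were of opposite sign. Of these, the Fabp1 change in Null mice did not pass (adjusted p = 0.308 and 0.118 by limma). Nor did the Fabp2 change in WT mice (adjusted p = 0.0961, and 0.286 without the 2 arrays that stood apart).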

How the results depend on the processing

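For WT 10 against 0 mg/kg the count of called member probe sets lay between 7 and 10 of 13 under every alternative, for WT 10 against 3 mg/kg between 5 and 7 with all arrays or without the 2 that stood apart, and for the response difference at 10 mg/kg between 6 and 7. Other counts moved. For WT 3 against 0 mg/kg, 0 became 1 by the methods' t-test. For Null 3 against 0 mg/kg, 1 became 0 with no filter, with all 30 arrays in 1 fit, and by the methods' t-test, 4 with array weights, 3 with the compared groups alone, and 2 with the replicate block. With array weights, 0 became 2 for the response difference at 3 mg/kg and 1 for Null against WT at 0 mg/kg. Null against WT at 3 mg/kg went from 2 to 1 with no filter and with the compared groups alone, and at 10 mg/kg from 9 to 5 with the compared groups alone. The cause of these moves was not tested.

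Leaving out 1 array gave ranges of 0 to 0 (WT 3 against 0 mg/kg), 7 to 10 (WT 10 against 0), 4 to 7 (WT 10 against 3), 0 to 2 (Null 3 against 0), 2 to 4 (Null 10 against 0), 0 to 0 (Null 10 against 3), 0 to 1 and 6 to 7 (response differences at 3 and 10), and 0 to 1, 1 to 2, and 7 to 10 (Null against WT at 0, 3, and 10 mg/kg). Beyond the lost calls named above, Null 3 against 0 mg/kg gave 2 without Null 3 mg/kg replicate 3 or Null 10 mg/kg replicates 1 or 5. The response difference at 3 mg/kg gave 1 without WT 0 mg/kg replicate 2 or WT 3 mg/kg replicate 2, and Null against WT at 0 mg/kg gave 1 without either of these, Null 0 mg/kg replicate 1, or Null 10 mg/kg replicates 1 or 4.

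With the replicate number as a block, WT 10 against 0 mg/kg gave 7 (Slc27a1 adjusted p = 0.0651 and Slc27a2 adjusted p = 0.0621 were lost), Null 3 against 0 gave 2, Null 10 against 0 gave 4 (Cd36 1450884_at was gained, adjusted p = 0.0376), and no other count moved. Arrays of the same number correlated at a mean of 0.037 in their deviations (-0.24 to 0.36), against -0.009 for other numbers (-0.46 to 0.71). The closest array shared the number for 8 of 30. Such correlations cannot exclude a pairing of the mice, and the labels name none. No called member changed direction under any alternative. For WT 10 against 0 mg/kg, leaving out the 2 arrays that stood apart moved the called genes of all those named from 927 higher and 709 lower to 1677 and 1758. Signal near the top of the scale (Fabp1) and near the filter (Slc27a1 and Cd36 1450884_at) limits what small differences can show. Cd36 1450884_at was above the filter's cutoff in 27 of 30 arrays, and 3 probe sets of Fabp4 were not kept.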
